A study of Mus musculus with 8 samples.

Results

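H3f3b and H3f3a, the mouse genes for histone H3.3, were examined for trimethylation of lysine 4 of histone H3 (H3K4me3), a mark of active promoters, in testis chromatin. H3f3b is the gene that was targeted in this study, and H3f3a is the remaining H3.3 gene, for which the labels name no change. Their regions were those that overlapped a window of 25 kb around H3f3b, on chromosome 11 from 115870000 to 115895000, or a window of 35 kb around H3f3a, on chromosome 1 from 182720000 to 182755000 (build mm9). These windows held 4 of the 16519 regions found when the lists of all libraries were merged, 3 in the H3f3b window and 1 in the H3f3a window. H3K4me3 had been mapped by ChIP-seq, the sequencing of DNA pulled down with an antibody to the mark, in whole testis tissue from adult mice of the C57BL/6 strain. The genotypes were H3f3b WT/WT (libraries WT66 and WT74) and H3f3b null (libraries KO67 and KO73), and the 4 input libraries of the series were not analysed here. The labels do not say which part of H3f3b the null allele lacks, whether the deletion was made in all tissues, or whether each library came from 1 animal. Whole testis mixes germ cells of all stages with somatic cells, so fewer cells that carry a mark and less of the mark per cell cannot be told apart. The tissue label was not checked against marker genes, because gene positions in mm9 were not used here.

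H3.3 differs from the canonical H3 histones at a few residues and is put into chromatin outside DNA replication, by the HIRA complex at active genes and by DAXX with ATRX at repeats. H3f3b and H3f3a encode the same protein from separate genes with their own promoters. In the male germ line, H3.3 takes part in the remodelling of the silenced sex chromosomes in meiosis and in the chromatin changes that precede the exchange of histones for protamines.

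The promoter sequences are shown because the genes for this 1 protein differ outside their coding parts. No H3K4me3 region was placed on them. They are the 250 bases before each gene's start in RefSeq, given 5′ to 3′ in the direction of transcription, and both of the 2 genes were matched by symbol. The build is GRCm38.p6, so these positions are not on the same scale as the mm9 regions. H3f3b lies at chr11:116024505-116024754 and H3f3a at chr1:180813606-180813855, both on the minus strand. Capitals mark matches on either strand to 5 motifs: the CCAAT box, searched as its letters CCAAT, the GC box, searched as GGGCGG, the TATA motif, searched as TATAAA, the E-box, searched as CACGTG, and the cyclic AMP response element, searched as TGACGTCA.
H3f3b: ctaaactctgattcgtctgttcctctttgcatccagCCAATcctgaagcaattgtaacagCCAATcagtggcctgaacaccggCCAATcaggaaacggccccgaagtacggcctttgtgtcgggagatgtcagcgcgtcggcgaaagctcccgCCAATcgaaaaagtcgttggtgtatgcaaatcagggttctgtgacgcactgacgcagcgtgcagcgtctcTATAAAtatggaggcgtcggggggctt
H3f3a: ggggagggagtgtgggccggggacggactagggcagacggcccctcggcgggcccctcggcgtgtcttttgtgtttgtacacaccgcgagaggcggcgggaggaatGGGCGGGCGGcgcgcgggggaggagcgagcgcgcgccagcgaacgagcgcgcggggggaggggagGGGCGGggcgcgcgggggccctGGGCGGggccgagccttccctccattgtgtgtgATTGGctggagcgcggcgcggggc

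The H3f3b promoter held 4 CCAAT matches, 1 TATA motif and no GC box. The H3f3a promoter held 4 GC boxes, of which 1 pair overlapped, 1 CCAAT match on the opposite strand and no TATA motif. Neither stretch held the E-box or the cyclic AMP response element as spelled here. Of the 32851 promoters in the table, cut to the same length, 33.8% held the CCAAT box, 32.7% the GC box, 12.4% the TATA motif, 6.02% the E-box and 1.55% the cyclic AMP response element. As many CCAAT matches as at H3f3b were found in 0.84% of promoters, and as many GC boxes as at H3f3a in 4.09%. Both promoters were rich in CpG for their base composition: the ratio of observed to expected CpG was 1.04 at H3f3b and 1.05 at H3f3a, against a median of 0.373. They differed in GC content, with 54% at H3f3b, close to the median of 52.4%, and 77.2% at H3f3a.

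The H3K4me3 region taken by gene order as that of H3f3b was present in all 4 libraries. In the H3f3b null libraries it had on average 40% of its WT length and was cut from 1 side only. Deleted DNA gives no reads, and the deleted part is not given. Loss of the mark and loss of DNA could thus not be told apart from the region lists. The H3f3a region lay among the strongest of every list and was 14.5% shorter in the null testes, a difference that did not pass the test. Another region beside the H3f3b gene region kept its place, and a small one was found in both WT lists and in neither KO list.

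The H3f3b window held 3 regions in each WT list, and they are called the first, the middle and the last in order along the chromosome. In the RefSeq gene order of GRCm38, H3f3b stands between Galk1, the gene for galactokinase, and Unk, which encodes an RNA-binding zinc finger protein. Galk1 and H3f3b are on the minus strand and Unk is on the plus strand. The 3 genes and the 3 regions follow each other in the same way, and on that order the middle region is taken as the one at H3f3b. This assignment rests on order alone and not on mm9 gene positions.

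The middle region was found in all 4 lists. It ran from 115884143 to 115886122 in WT66 and from 115884346 to 115886247 in WT74. In KO67 it ran from 115885429 to 115886180 and in KO73 from 115885487 to 115886287. Both libraries labelled KO had the short form and both labelled WT the long form. The deleted part is not given, so this is no independent check of the labels.

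**Figure D1:**
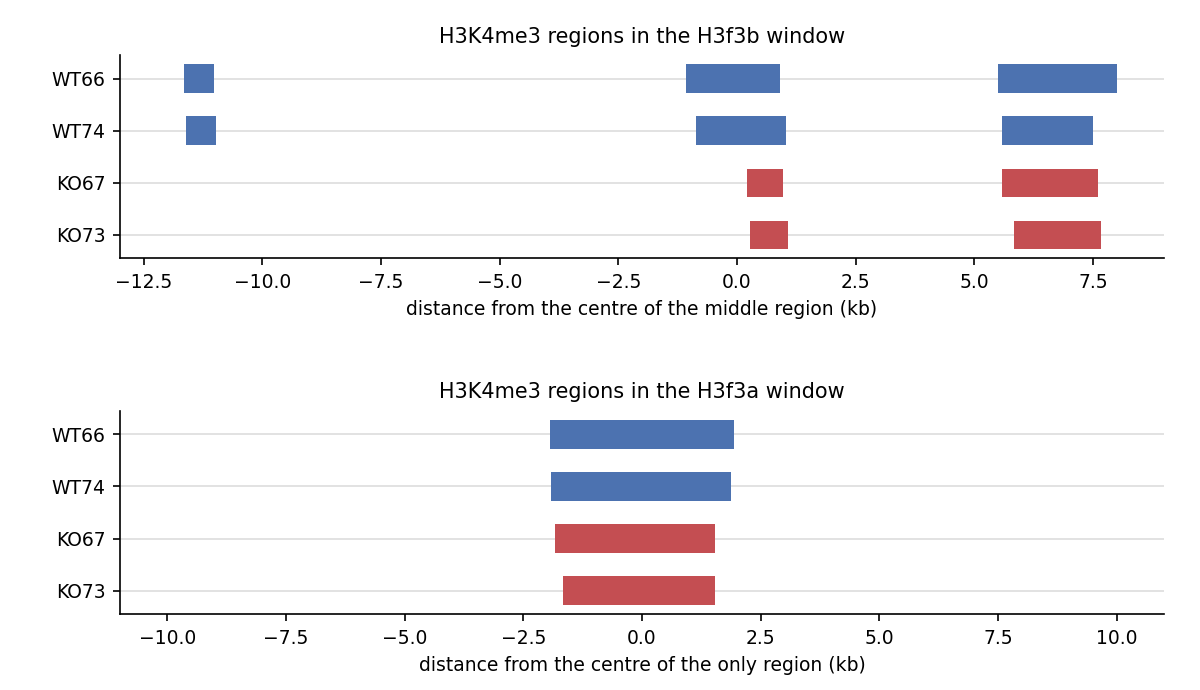
H3K4me3 regions of the 2 gene windows in each library (blue, WT; red, KO), as bars to scale against the distance in kb from the centre of the merged middle region (top) or of the merged H3f3a region (bottom). In the KO libraries the middle region starts to the right of its WT start and ends at nearly the same place, and the first region is missing.

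The covered length of the middle region was 1980 bp in WT66, 1902 bp in WT74, 752 bp in KO67 and 801 bp in KO73. Both KO lengths were below both WT lengths, as they were in 47.4% of all shared regions. The gap between the genotypes was many times the difference between libraries of 1 genotype. The WT mean was 1941 ± 55.2 bp, against a KO mean of 776.5 ± 34.6 bp (SD, n = 2 each). On the log2 scale the change, KO minus WT, was -1.32 ± 0.16 (SE), with an adjusted p of 0.0253 by limma, with Benjamini-Hochberg adjustment across the 9742 regions that all 4 libraries share. Of these shared regions, 3.6% were called narrower in KO by the same test, and the change at the middle region was the 192nd from the lowest. The median change of all shared regions was -0.18. Subtracting library medians moved this median by 0.23, and the change at the middle region was then -1.09 (limma adjusted p = 0.0513). With quantile normalization it was -1.12 (limma adjusted p = 0.0662). With 1 library left out it ran from -1.37 to -1.28, with limma adjusted p from 0.0713 without KO73 to 0.353 without WT66, but no shared region passed in any of these fits, in which 1 genotype has a single library, so they say nothing about this call beyond the size of the change.

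**Figure D2:**
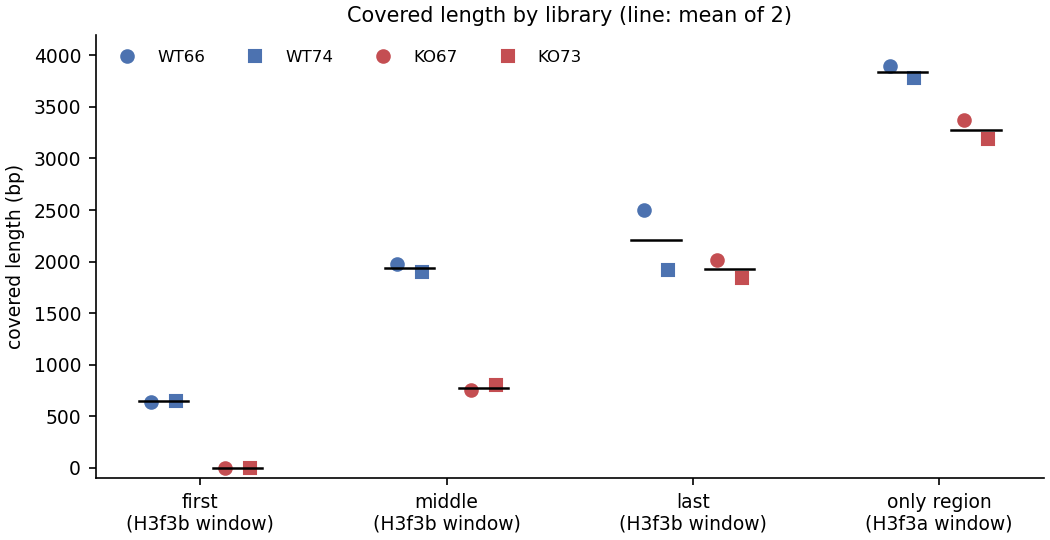
Covered length in bp of the 4 regions in each library (circles and squares, the libraries of each genotype; line, their mean). The middle region of the H3f3b window sits at 1980 and 1902 bp in WT and at 752 and 801 bp in KO, and the KO points of the first region are at 0 because it was not in those lists.

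Only 1 edge of the middle region moved beyond the spread between libraries. Its start, the edge at the lower coordinate, lay 1213.5 bp further in on average in KO, and even the closest WT and KO starts were 1083 bp apart. The starts of the KO libraries differed from each other by 58 bp and those of the WT libraries by 203 bp. Over all shared regions, the median difference between the starts of the libraries of 1 genotype was 128 bp in WT and 121 bp in KO. The end was 49 bp further out on average in KO, within the 125 bp between the WT ends and the 107 bp between the KO ends. The 2-sided exact permutation p was 0.33 for the start, the smallest this design of 2 against 2 allows, and 0.667 for the end. H3f3b is transcribed from the minus strand, so if the region spans the gene's start, the missing side is the one towards the gene body and the kept side the one upstream. A stretch of DNA that is deleted gives no reads. From the region lists, deleted DNA and DNA without the mark cannot be told apart on the missing side, and the input libraries were not analysed here.

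**Figure D3:**
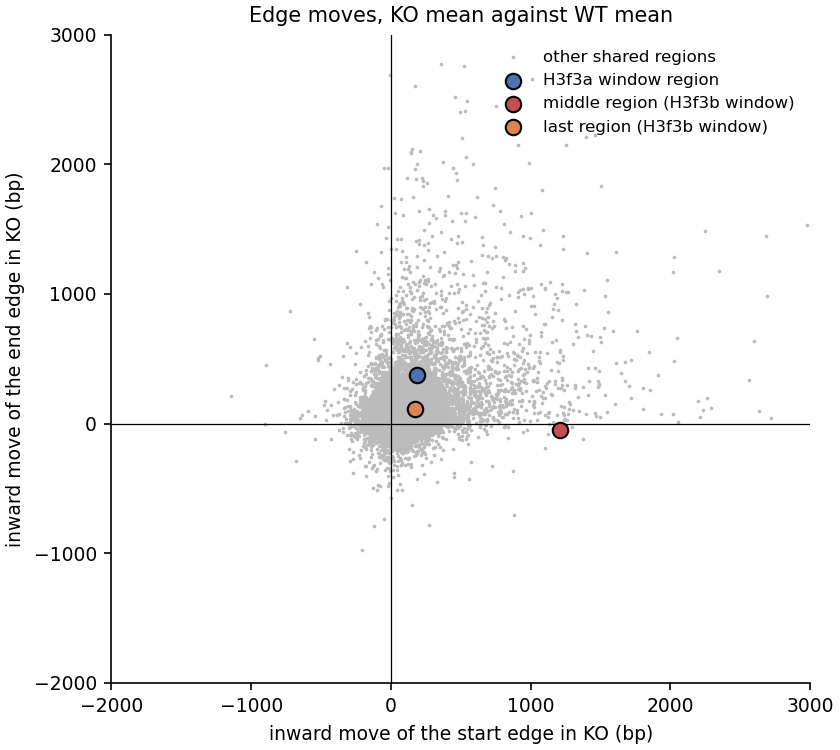
Inward move of the start edge against that of the end edge, both in bp as the KO mean against the WT mean, for the shared regions (grey, with 15 of them beyond the axes) and the 3 shared regions of the windows. The middle region of the H3f3b window lies far to the right at a start move of 1213.5 bp and close to 0 on the end axis.

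A cut of this form was rare among the shared regions. Both KO starts lay inside both WT starts in 37.3% of them, and both KO ends inside both WT ends in 41.7%. An edge that lay at least 1083 bp inside both WT edges in both KO libraries was found in 150 shared regions (1.54%), at the start in 65 and at the end in 90. An inward gap of at least 1000 bp at 1 edge together with a move of under 100 bp at the other was found in 33 regions (0.339%), the middle region among them. These limits were set after the values of the middle region had been seen, and the counts are a description. Of the 1777 bp covered in both WT libraries, 39.1% was covered in KO67 and 35.8% in KO73. Over 9422 shared regions with 1 piece per library, the median was 93.4% in KO67 and 90.8% in KO73, and 1.97% and 1.49% of them kept 40% or less. The limit of 40% lies just above the values of the middle region, so these shares too are only a description.

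Set beside regions of the same length, the middle region was among the most narrowed. Among the 1610 other shared regions whose mean WT length was within 10% of its own, the median log2 change was -0.21, with quartiles of -0.39 and -0.09. A change as low as its -1.32 was found in 23 of them, 1.43%.

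**Figure D4:**
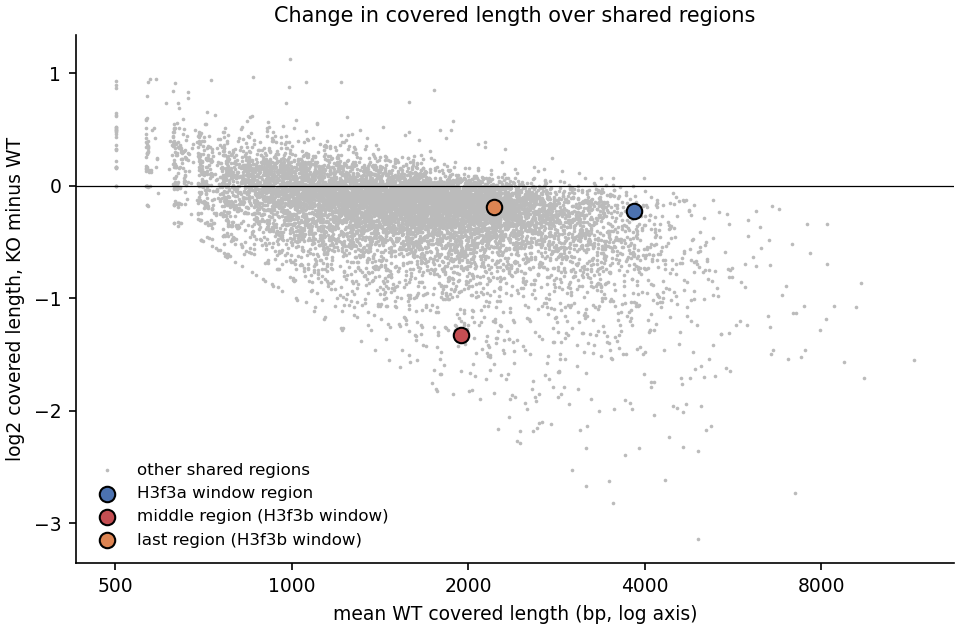
Log2 change in covered length, KO minus WT, against the mean WT covered length in bp (log axis) for the 9742 shared regions (grey) and the 3 shared regions of the windows. The middle region of the H3f3b window lies at -1.32, below most regions of its length, while the last region (-0.19) and the H3f3a region (-0.23) lie within or above the bulk, and these last values turn positive when library medians are subtracted.

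The score that the authors' tool gave each region has no stated scale, and it was used only within a list. The middle region scored 260.3 in WT66, 231.4 in WT74, 56.9 in KO67 and 76.8 in KO73. This placed it at rank 997 of 14078 and 1234 of 14551 in the WT lists, and at rank 6864 of 10502 and 6309 of 12497 in the KO lists. Among the shared regions alone, a set that is the same in every list, its score stood at percentile 89.8 in WT66 and 87.4 in WT74, and at 29.9 in KO67 and 35.5 in KO73. Among the shared regions it thus stood in the upper part in WT and in the lower part in KO. In the full KO lists it stood at percentile 34.5 in KO67 and near the middle, at 49.1, in KO73. The part of deleted DNA in the lower KO scores was not tested. A drop of at least 25 percentile points between the lower WT and the higher KO value was found in 2.26% of the shared regions, with the limit set after the values had been seen.

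**Figure D5:**
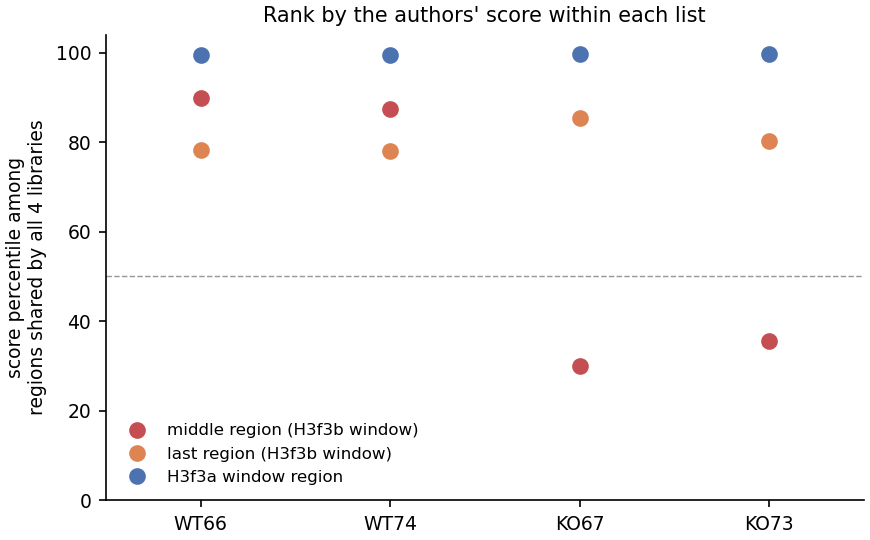
Percentile of the authors' score among the regions shared by all 4 libraries, in each library (dashed line, percentile 50). The middle region of the H3f3b window stands at 89.8 and 87.4 in WT and at 29.9 and 35.5 in KO, while the last region stays between 78.0 and 85.4 and the H3f3a region above 99.

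What was left of the middle region in KO still scored high for its length. Among the regions of the same list within 10% of its length, a lower score was found in 98.6% (WT66), 95.1% (WT74), 99.2% (KO67) and 96.4% (KO73). The libraries of both genotypes overlapped on this measure. The sets compared differed, with a median score of 155.5 (WT66), 150.6 (WT74), 32.5 (KO67) and 37.7 (KO73). A high place in them therefore does not mean that the score per kb was kept. The score per kb of the middle region was 131 (WT66), 122 (WT74), 75.7 (KO67) and 95.9 (KO73), and the scale may differ between lists. In each list a step was searched for such that all scores below 100 lay within 0.055 of a multiple of it. The step was chosen for this fit, so the fit is no independent check of it. For a step fixed beforehand, chance gives 33.8% of values in KO67 and 7.59% in KO73. Counted in steps, the score of the middle region was 175 in KO67 and 53 in KO73, and if 1 step is 1 read, which is not stated, these are its reads. The WT scores lay above the range in which the steps were checked.

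The H3f3a window held 1 region, which was present in all 4 lists. It is called the H3f3a region because it is the only one in that window, not because it was matched to the gene's position in mm9. It ran from 182741549 to 182745444 in WT66, from 182741585 to 182745364 in WT74, from 182741664 to 182745033 in KO67 and from 182741838 to 182745028 in KO73. Its covered length was 3896 bp in WT66, 3780 bp in WT74, 3370 bp in KO67 and 3191 bp in KO73. Both KO lengths were under both WT lengths, as they were in 47.4% of all shared regions. The WT mean was 3838 ± 82.0 bp, against a KO mean of 3280.5 ± 127 bp (SD, n = 2 each). The log2 change of -0.23 ± 0.11 (SE) did not pass (limma adjusted p = 0.322), and it turned to 0.01 with library medians subtracted and to 0.24 with quantile normalization. The absolute widths were thus lower in KO, while their direction relative to the other shared regions was not settled.

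Both edges of the H3f3a region lay further in in KO. The start moved in by 184 bp on average and the end by 373.5 bp, with 331 bp between the closest WT and KO ends (2-sided exact permutation p = 0.33 for each edge). The KO ends were 5 bp apart and the WT ends 80 bp apart. Of the 3780 bp covered in both WT libraries, 89.2% was covered in KO67 and 84.4% in KO73, below the medians of the shared regions given above and above their lower quartiles of 82.3% and 80.7%.

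Most regions as long in WT as that of H3f3a had a lower log2 change. The 276 other shared regions within 10% of its mean WT length had a median log2 change of -0.56, with quartiles of -0.89 and -0.35. Of them, 85.5% had a change as low as or lower than -0.23. This set was chosen by WT length, which is also 1 side of the change. Over all shared regions, the change of the H3f3a region stood at percentile 43.0, counted from the lowest. The place of the H3f3a region in the lists was steady. It ranked 57th by score in WT66, 43rd in WT74, 30th in KO67 and 40th in KO73, within the top 0.405% of each list. By width it stood in the top 2.25% and 2.27% of the WT lists and in the top 0.705% and 1.15% of the KO lists. Its score exceeded that of 91.6% to 98% of the regions of like length in the same list.

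The last region of the H3f3b window, next to the middle one, differed little between the genotypes. It ran from 115890720 to 115893221 in WT66, from 115890804 to 115892724 in WT74, from 115890808 to 115892823 in KO67 and from 115891055 to 115892893 in KO73. It covered 2502 bp in WT66, 1921 bp in WT74, 2016 bp in KO67 and 1839 bp in KO73, so the genotypes overlapped. The log2 change of -0.19 ± 0.16 (SE) did not pass (limma adjusted p = 0.576). It was 0.05 with library medians subtracted and 0.09 with quantile normalization, and it ran from -0.38 without WT74 to 0.00 without WT66. By score it stood at percentile 78.4 and 78.0 of the shared regions in WT and 85.4 and 80.4 in KO.

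The first region of the H3f3b window was small, scored low and was in neither KO list. It covered 636 bp in WT66 and 651 bp in WT74, against a narrowest region of 501 bp in every list. Its score percentile was 9.04 in WT66 and 16.0 in WT74, so it stood near the foot of both lists. Of the 12560 regions present in both WT lists, 11.8% were absent from both KO lists. Its score in steps was 28 in WT66 and 21 in WT74.

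Set against both other shared regions of the same list, the middle region of the H3f3b window stood lower in KO. Its score was 0.543 and 0.471 times that of the H3f3a region in WT66 and WT74, and 0.171 and 0.204 times in KO67 and KO73. Against the last region, which lies in the same window, the ratio of scores was 1.29 and 1.23 in WT and 0.359 and 0.465 in KO. The ratio of covered length to that of H3f3a was 0.508 and 0.503 in WT and 0.223 and 0.251 in KO. The score of the last region was 0.421 and 0.383 times that of H3f3a in WT and 0.477 and 0.438 times in KO, which goes the other way by a small amount. Each of these 4 ratios separated the genotypes with a 2-sided exact permutation p of 0.33, the smallest possible, and an adjusted p of 0.40 over the 6 ratios computed. The part of deleted DNA in the ratios of the middle region was not tested.

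Summed over a window, H3K4me3 around H3f3b covered 5118 bp in WT66 and 4474 bp in WT74, but 2768 bp in KO67 and 2640 bp in KO73. The mean was 43.6% lower in KO (2-sided exact permutation p = 0.33, the smallest possible). The WT sums include the low-scoring first region, which was in neither KO list. With the score threshold or with lists of equal length, the difference went from -2092.0 to -1448.5 bp. The part of deleted DNA in this difference was not tested. The H3f3a window held only the region described, so its sum is that region's length.

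Of the 6 shared regions within 100 kb of a window, 5 had both KO lengths below both WT lengths, against 47.4% of all shared regions, both without scaling. The share of all shared regions was 18.6% with library medians subtracted and 16.4% with quantile normalization. The count near the windows was not repeated under these scalings, so it cannot be set against those shares. Near each window 1 further region was in both WT lists and neither KO list, as were 11.8% of all both-WT regions. These counts are too small to set the neighbourhood apart. Within 100 kb of the H3f3b window there were 5 other regions, of which 3 were in all 4 lists, with log2 changes from -0.44 to -0.28. A region before the H3f3b window, on chromosome 11 from 115772423 to 115775636, covered 3085 bp in WT66 and 2914 bp in WT74 and was in neither KO list. Its score percentile was 68.8 in WT66 and 76.2 in WT74, well above that of the first region. Within 100 kb of the H3f3a window there were also 5 other regions, with 3 in all 4 lists and log2 changes from -0.60 to -0.16. The nearest to it, 4.83 kb beyond the window on chromosome 1 from 182759829 to 182761490, covered 1397 bp in WT66 and 1478 bp in WT74 and was in neither KO list.

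The shared regions most like each of the 3 were those with the smallest Euclidean distance over the 4 log2 covered lengths. For the middle region the nearest spanned chromosome 6 from 124728663 to 124730686 (distance 0.0577), which covered 2024 bp in WT66, 1844 bp in WT74, 761 bp in KO67 and 798 bp in KO73. The next were on chromosome 6 from 100783190 to 100785128 (distance 0.139) and on chromosome 17 from 30760040 to 30762445 (0.246). For H3f3a the nearest was on the same chromosome, from 180265177 to 180269032 (0.107), and it covered 3752 bp in WT66, 3645 bp in WT74, 3310 bp in KO67 and 3036 bp in KO73. Next came chromosome 12 from 109511536 to 109515818 at a distance of 0.147, then chromosome 13 from 58501857 to 58505711 at 0.154. For the last region the 3 nearest lay on chromosomes 15, 2 and 10, at distances from 0.0671 to 0.0716. The measure rests on 4 libraries and on length alone.

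The lists held 14078 regions in WT66, 14551 in WT74, 10502 in KO67 and 12497 in KO73. If a score step is 1 read and the authors brought every list to 1 common total (neither is stated), the depth relative to KO73 was 1.66, 1.04 and 4.46 in WT66, WT74 and KO67. The part of depth in the lengths was not tested.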

How the data were processed

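H3K4me3 ChIP-seq of adult mouse testis gave 1 list of regions per library, 2 libraries per genotype. Bowtie, HOMER and build mm9 are named per the submitters' processing notes. Neither versions nor settings are stated, nor whether inputs entered the calling. The deposited score of each region has no stated scale. Starts were converted to count from 1, and regions that overlapped or touched were merged across lists. Log2 covered lengths of the 9742 regions found in all 4 libraries were tested with limma 3.58.1 (R 4.3.3, empirical Bayes, variance trend), and calls were made at a threshold of 0.05 after Benjamini-Hochberg adjustment. Single values had 2-sided exact permutation tests. The libraries may be technical replicates, so p-values measure only the spread between them.

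On simulated widths of 9742 regions, limma recovered 56 of 100 regions with a simulated log2 change of -1 and 100 of 100 with one of -2. It also called 17 of the 9542 regions left as they were. The simulated widths had no shift common to most regions, unlike the data, in which the median log2 change was -0.18. The recovery therefore does not cover such a shift. The genes, windows and lists were chosen with earlier results of these data known. All regions that overlap a window were named. The rule also named the 3 regions nearest by covered length to the widest region of each window, and those of the middle region of the H3f3b window were added after its values were seen. Other genes of the H3.3 pathway were to be examined only with mm9 gene positions and were not. Alternatives were a score threshold, lists of equal length, joining of regions up to 500 bp apart, 2 scalings, no variance trend, regions of at least 2 libraries, the widest piece, a wider window and leaving out each library.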

Additional observations from a re-analysis of the deposited data

How the results depend on the processing

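The middle region of the H3f3b window kept its direction under all 12 alternatives, but most of them could not have turned it. Over the 8 that kept all libraries, the adjusted p (limma) ran from 0.00955 to 0.0662, and 6 passed. These 6 left the length of the region, 1 piece in each list, as it was, so its change stayed at -1.32. Without 1 library the change was -1.37 to -1.28, and its sign was fixed because both KO lengths were below both WT lengths. Only the 2 scalings could have turned the sign. The middle region did not pass with library medians subtracted (-1.09) or with quantile normalization (-1.12). The last region turned to 0.05 and 0.09 under these scalings and ran from -0.38 to 0.00 without 1 library. The H3f3a region turned to 0.01 and 0.24. Without 1 library, the end edge of the middle region moved by -13.5 to 111.5 bp and that of the last region by -363.0 to 134.0 bp. The 351 narrower regions became 79, 54 and 97 with library medians subtracted, quantile normalization and no variance trend, and the 1 wider region became 2 with quantile normalization, 4 with a score threshold and 5 with lists of equal length. Without 1 library, limma called 0 of the 9742 shared regions narrower and 0 wider, with 1095 to 1736 at an unadjusted p under 0.05. Both KO lengths lay below both WT lengths in 18.6% and 16.4% of regions under the 2 scalings. The cause of these shifts was not tested. Covered length in both windows kept its direction under the 7 alternatives run for each. Leaving out 1 library could not have turned it, because both KO sums were below both WT sums, and the 2 scalings were not run on the windows. With the window widened by 10 kb the H3f3a difference went from -557.5 to -1995.0 bp, because a further region then lay inside. No paired analysis was possible because the libraries of the 2 genotypes share no replicate number.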
